A study of Homo sapiens with 12 samples.

Results

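The peaks described here are the stretches of human RNA that were enriched when V5-tagged dSpCas9 was immunoprecipitated from HEK 293T cells, relative to the same V5 immunoprecipitation (IP) from cells that had received the empty vector. All 3005 peaks of the deposited list for this comparison were taken, of 18128 peaks in all 4 lists of the series, with no further threshold. The other lists compare the V5 IP with its size-matched input (RNA cut from the membrane at the same size, with no antibody step, 6605 peaks), the FLAG IP of 3xFLAG-dSpCas9 with an empty vector FLAG IP (1964 peaks), and that FLAG IP with its input (6554 peaks).

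The assay was eCLIP, in which UV light fixes a protein to its bound RNA inside the cell, an antibody pulls the protein down, and the RNA that comes with it is sequenced. The 12 libraries fell into 6 groups of 2 replicates, and this comparison used the 2 V5 IP libraries of V5-dSpCas9 cells and the 2 V5 IP libraries of empty vector cells. dSpCas9 is a Streptococcus pyogenes Cas9 without nuclease activity, here kept in the cytoplasm and expressed from a transfected pcDNA3.1 plasmid, and no guide RNA was supplied. HEK 293T is a human embryonic kidney line with the large T antigen of SV40. All groups were cross-linked with UV at 400 mJ/cm2, with 2 exposures according to the labels, and RNA was taken from the membrane above 115 kDa.

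Each peak carried 1 enrichment, the log2 of the ratio of dSpCas9 IP to empty vector IP reads (the geometric mean over both replicates), and 1 p-value as −log10 p. Values per replicate and library depths were not analysed here, so no enrichment has an error and no difference between peaks was tested. The intervals given below for shares of peaks are 95% Wilson intervals, which cover counting error only. Peaks beside each other in a gene are not independent observations. Numerator and denominator came from different transfections, so a change in the level of an RNA between dSpCas9 and empty vector cells cannot be told apart from a change in its recovery with dSpCas9. The files held no expression values, so the identity of the cell line could not be checked against its markers.

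Cas9 is a bacterial protein that normally carries a guide RNA, whose scaffold folds into short hairpins that the protein grips. An mRNA consists of a 5′ untranslated region (UTR), a coding sequence (CDS) that ribosomes read, and a 3′ UTR, and a protein that binds RNA often favours some of these regions. Transfer RNAs, which bring amino acids to the ribosome, and vault RNAs are short folded RNAs made by RNA polymerase III.

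The sequences below are examples of highly enriched stretches, as read from hg38 on the strand of the peak, 5′ to 3′. They are not a complete set of the highest peaks. Among those not shown are short peaks of CDIP1 (7.20, 14 nt), SRM (6.16, 4 nt) and TMEM14C (6.12, 17 nt). The CDS peaks are given whole, and no base is marked.
H2AC11, CDS, chr6:27133370-27133411, plus strand, log2 enrichment 6.30: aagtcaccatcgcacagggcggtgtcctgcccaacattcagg
ZNF672, CDS, chr1:248847895-248848018, plus strand, log2 enrichment 6.10: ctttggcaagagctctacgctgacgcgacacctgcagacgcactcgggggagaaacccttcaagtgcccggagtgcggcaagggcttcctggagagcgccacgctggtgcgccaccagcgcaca
SRPRA, CDS, chr11:126265343-126265440, minus strand, log2 enrichment 5.99: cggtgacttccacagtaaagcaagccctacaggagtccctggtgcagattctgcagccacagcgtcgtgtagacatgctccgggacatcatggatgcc
SRM, CDS, chr1:11055892-11055922, minus strand, log2 enrichment 5.92: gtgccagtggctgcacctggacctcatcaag
RPLP0, CDS, chr12:120197404-120197462, minus strand, log2 enrichment 5.80: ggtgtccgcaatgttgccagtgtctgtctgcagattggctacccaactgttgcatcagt

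From UTR peaks of the genes named below, at most 30 nt from the middle of a peak are given.
CDIP1, 5′ UTR, chr16:4538726-4538755, minus strand, log2 enrichment 6.35: tgccgaggcgttcggtcctgctgttgcggc
DFFA, 5′ UTR, chr1:10472506-10472520, minus strand, log2 enrichment 5.60: aaggaccgccgctcc
SSB, 5′ UTR, chr2:169798911-169798940, plus strand, log2 enrichment 5.37: ggtggagtcgttgctgttgctgtttgtgag
MACROH2A2, 3′ UTR, chr10:70111824-70111839, plus strand, log2 enrichment 6.72: cccttcacactctcct
ATF3, 3′ UTR, chr1:212619722-212619751, plus strand, log2 enrichment 6.67: ctgccccagagtgggtcttggaccagggca
POLG, 3′ UTR, chr15:89316704-89316733, minus strand, log2 enrichment 5.72: gtatttgctcccgtggagcttcatcggggt
The GC content of these stretches ran from 52.5% in RPLP0 to 73.3% in DFFA.

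The enrichment of the 3005 peaks ran from 3.00 to 7.20 on the log2 scale, with a median of 3.61 and quartiles of 3.30 and 4.07. The list ended at its own threshold: SLC25A3, a mitochondrial phosphate carrier, held the lowest peak at 3.00, and 2746 peaks (91.4%) stood at 3.1 or more. A log2 of 4 or more was reached by 841 peaks (28.0%), of 5 or more by 129 (4.29%) and of 6 or more by 15 (0.499%). The −log10 p had a median of 6.14 and ran from 3.01 to a ceiling of 400, where 37 peaks stood. Below that ceiling, 2146 of 2968 peaks shared their p-value with at least 1 other peak, and 63 peaks shared the most common value, 3.01. Enrichment and −log10 p rose together only in part, with a Spearman coefficient across peaks of 0.36 (n = 2968), and enrichment against peak length gave −0.12 (n = 3005).

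Peaks were short, with a median of 73 nt and a range of 1 to 278 nt, and 194 peaks (6.46%) were under 10 nt. Many touched a neighbour, so that merging peaks that touched or overlapped on a strand gave 2441 intervals, 2049 of them made of 1 peak. The longest interval spanned 429 nt, the most crowded held 8 peaks, and all intervals together covered 223895 nt. Both strands were used about equally, with 1514 peaks on the plus and 1491 on the minus strand.

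mRNA made up nearly the whole list. Of the 3005 peaks, 2966 (98.7%, 98.2 to 99.0) lay in 1304 mRNA genes, and 39 lay in 17 noncoding genes. The median mRNA gene held 1 peak, 581 genes (44.6%) held 2 or more, and 32 genes held 10 or more and together carried 504 peaks (17.0% of mRNA peaks). Against the annotation, 1301 of 19330 protein-coding genes (6.73%) had a peak, readthrough genes left out. Against the 3505 mRNA genes with a peak in any of the 4 lists, 37.2% had one here. No peak lay on the 13 protein-coding genes of the mitochondrial genome.

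The most enriched peak of the list lay in the 5′ UTR of CDIP1, a proapoptotic gene induced by p53, at a log2 of 7.20 (chr16:4538764-4538777, minus strand, 14 nt). CDIP1 held 7 peaks. The other 4 in its 5′ UTR had log2 enrichments of 6.35, 5.99, 5.70 and 4.05, and the 2 in its CDS stood at 4.06 and 4.09, so the enrichment was concentrated at the 5′ end of the message. Over its input the highest V5 peak of CDIP1 stood at 7.18, and the highest FLAG peak over the empty vector IP stood at 8.01.

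Ribosomal protein mRNAs held many peaks. RPL8, a protein of the large ribosomal subunit, held 28 peaks in 18 separate intervals, of which 25 lay in the CDS and 3 in the 5′ UTR, with a range of 3.16 to 6.13. RPLP0, the stalk protein of the large subunit, reached 5.80 over 19 peaks, 4 of them in the 5′ UTR. The enrichment of RPL8 was uneven along the message and was highest near the middle of the mRNA. For RPL8 and RPLP0 the FLAG values over the empty vector IP were lower, at 3.92 and 4.58. Ribosomal protein genes have many near-identical pseudogenes, so how reads were divided between copies is uncertain.

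Histone genes gave 2 of the 5 highest genes. MACROH2A2, a histone variant linked to silent chromatin, held 3 touching peaks in its 3′ UTR with log2 enrichments of 5.85, 5.97 and 6.72. H2AC11, a core H2A histone gene, held 17 peaks between 4.06 and 6.30, 13 of them in the CDS, and 7 of them stood at the p-value ceiling. H2A genes are near-identical in their coding sequence, so this signal may be shared with other H2A copies. The linker histone H1-4 held 9 CDS peaks up to 4.36, and MACROH2A1 held 3 CDS peaks up to 4.05. Large values were thus a matter of a few histone genes. Of 84 annotated histone genes, 18 (21.4%) had a peak, against 6.73% of all protein-coding genes. Of the 35 with a peak in any list this was 51.4%, against 37.2% of all such mRNA genes. The median highest enrichment of the 18 was 3.32, against 3.72 over all mRNA genes.

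ATF3, a transcription factor induced by many stresses, held 15 peaks in 8 intervals, 10 of them in the 3′ UTR. Its highest peak, at 6.67 (chr1:212619719-212619754), lay in the 3′ UTR, whereas its 3 CDS peaks stood at 3.51, 3.76 and 4.57 and its 2 peaks in the 5′ UTR at 3.76 and 3.85. TRIB3, a pseudokinase induced in the same stress response, had 4 peaks in the CDS up to 4.58 and 4 in the 3′ UTR up to 5.65.

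The other genes among the 20 highest came from many pathways. SRM, which makes spermidine, held 5 touching or neighbouring CDS peaks between 5.26 and 6.16, all of them high. TMEM14C, a mitochondrial membrane protein needed for heme synthesis, held 7 CDS peaks up to 6.12. ZNF672, a zinc finger protein, held a single CDS peak of 124 nt at 6.10. SRPRA, the alpha subunit of the receptor for the signal recognition particle, reached 5.99 in 1 of its 7 peaks while its other peaks lay between 3.01 and 4.30. HEY1, a repressor that Notch signalling induces, held 2 peaks, both in the 5′ UTR, at 4.44 and 5.83. It was the only gene of the 19 described without a FLAG peak over the empty vector IP.

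TRIM28, a corepressor that KRAB zinc finger proteins recruit, held 30 peaks in 12 intervals, with 27 in the CDS and 3 in the 5′ UTR and a highest log2 enrichment of 5.82. ESRRA, an orphan nuclear receptor, reached 5.79 in the CDS. POLG, the mitochondrial DNA polymerase, held 3 peaks at the start of its 3′ UTR, at 5.39, 5.65 and 5.72, and 1 weaker CDS peak at 3.08. IRAK1, a kinase of interleukin-1 receptor signalling, held 21 peaks, 15 of them in the 3′ UTR, up to 5.62. CCNA2 (cyclin A2) reached 5.62, MARS1 (methionyl-tRNA synthetase) 5.61 over 16 CDS peaks, and DFFA, the inhibitor of the caspase-activated DNase, 5.60 in its 5′ UTR. SSB, the La protein that binds the ends of RNA polymerase III transcripts, was outside the 20 highest genes but among the 5 highest by 5′ UTR peaks, at 5.37.

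**Figure D1:**
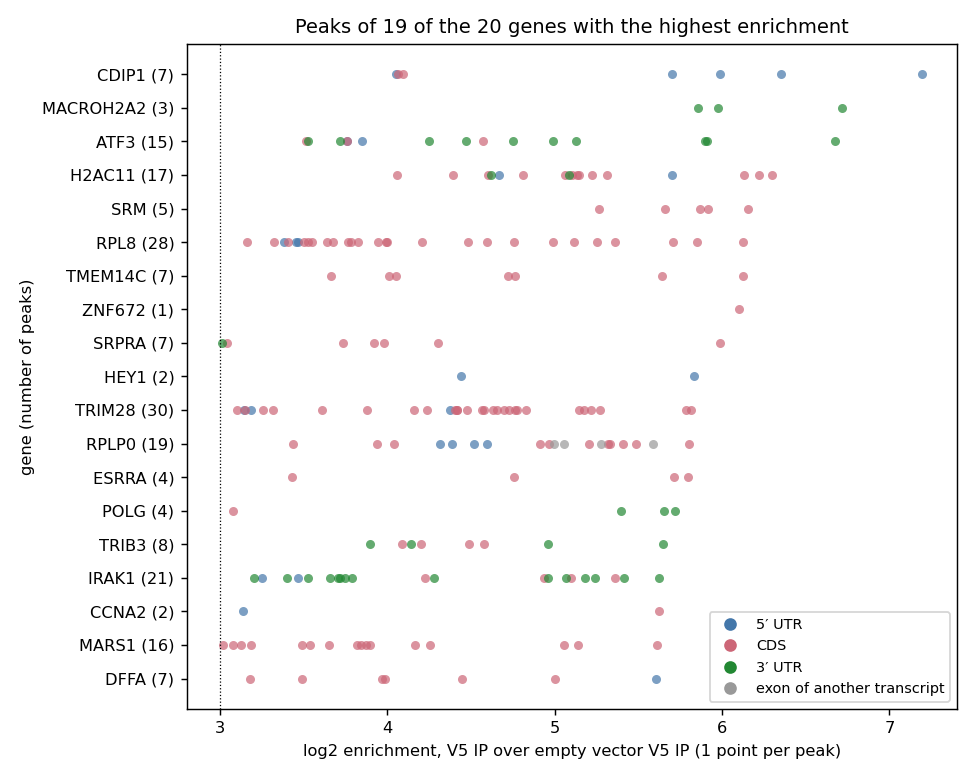
Log2 enrichment of every peak (1 point per peak, x axis) in 19 of the 20 genes with the highest values, coloured by mRNA region, with the number of peaks in parentheses; the dotted line marks a log2 of 3. CDIP1 reaches 7.20 in its 5′ UTR, the SRM points are all in the CDS, and the 3 MACROH2A2 points are all in the 3′ UTR.

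The number of intervals ranked genes differently from the height of the best peak. EEF2, the translation elongation factor that moves the ribosome along the message, had the most peaks, 39, all in the CDS and in 18 intervals, with a highest value of 4.93. SESN2, a stress-induced antioxidant regulator and p53 target, held 17 peaks in 14 intervals up to 5.15, and USP22, a histone deubiquitinase, held 20 peaks in 14 intervals up to 4.89. EEF1G, a subunit of the elongation factor 1 complex, held 26 peaks, 25 of them in the CDS, up to 5.53. AHCY, which hydrolyses S-adenosylhomocysteine, held 17 peaks up to 5.35, and CBX6, a Polycomb protein, held 16 peaks up to 4.33, with 9 of them in the 3′ UTR. In the drawing of peaks along 5 mRNAs, CDIP1 was most enriched at its start, ATF3 in its 3′ UTR, and RPL8, TRIM28 and EEF1G in separate blocks of the CDS.

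**Figure D2:**
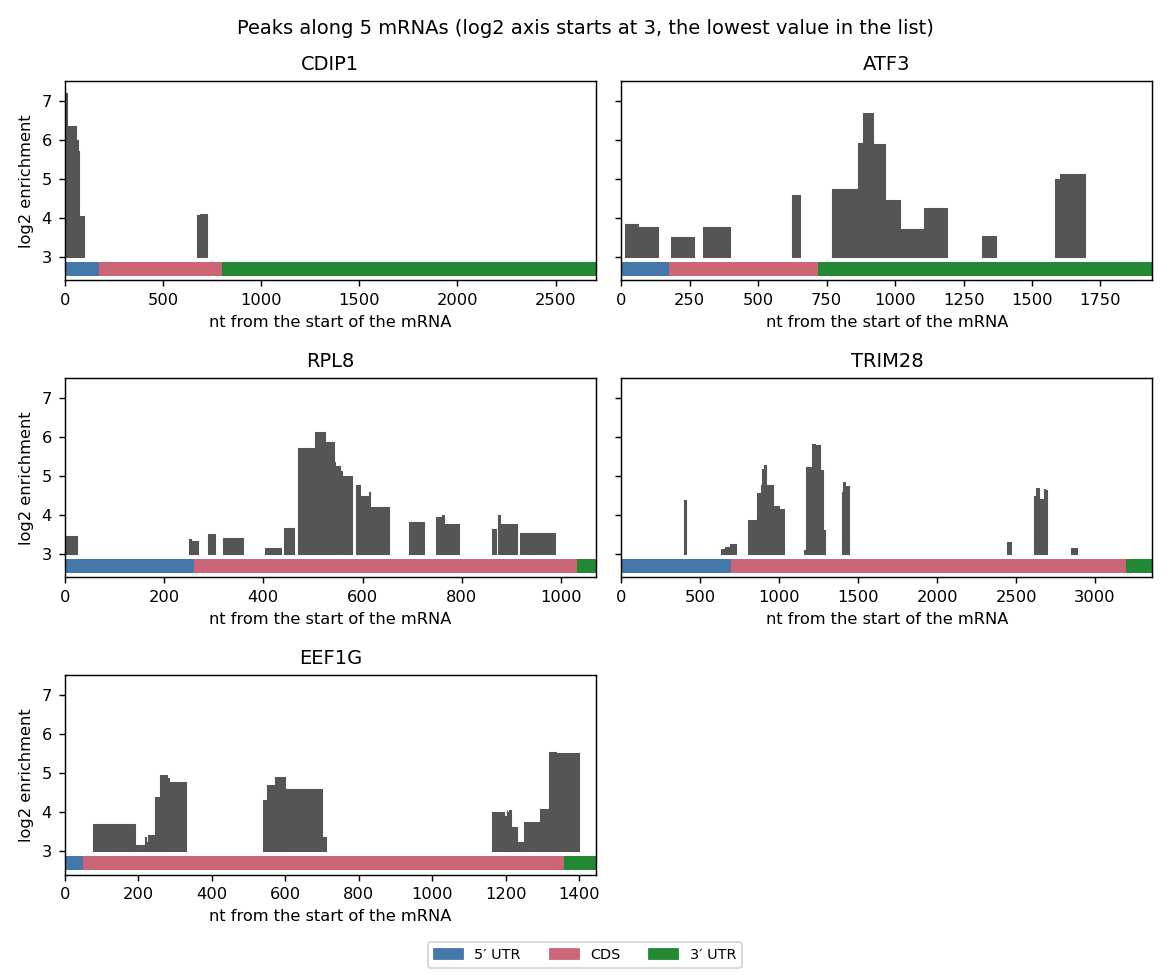
Peaks along the spliced canonical mRNA of 5 genes (x axis, nucleotides from the start of the mRNA), each block spanning a peak and rising to its log2 enrichment from a base of 3; the bar under each panel shows the 5′ UTR, CDS and 3′ UTR. CDIP1 is highest at its start (7.20), ATF3 in its 3′ UTR (6.67) and RPL8 in its CDS (6.13).

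Among the regions of the canonical mRNA (the main transcript of each gene), the CDS held 1842 peaks (61.3% of all peaks, 59.5 to 63.0), the 3′ UTR 825 (27.5%, 25.9 to 29.1) and the 5′ UTR 275 (9.15%, 8.17 to 10.2). A further 20 peaks lay in exons of other transcripts and 4 in introns, of PRKCA (protein kinase C alpha, up to 3.61) and of an unnamed gene. The region did not go with the height of the peaks: the median log2 enrichment was 3.62 in the CDS, in the 3′ UTR and in the 5′ UTR, and 28.3%, 27.9% and 28.0% of their peaks reached 4.

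Of the 2942 peaks on canonical mRNAs, 62.6% were in the CDS, whereas the CDS made up 51.9% of the length of the same mRNAs with each gene weighted by its peaks. The 5′ UTR held 9.35% of peaks against 5.30% of length, and the 3′ UTR 28.0% against 42.8%. The size of the CDS surplus depended on counting peaks, which were shorter there (median 63 nt, against 87 nt in the 3′ UTR and 86 nt in the 5′ UTR). Counted by nucleotides, the CDS share of the whole list was 54.8% in place of 61.3%, and the 3′ UTR share 32.4% in place of 27.5%. These shares of the whole list include noncoding peaks, so they are not on the same base as the shares of canonical mRNA peaks and of length. In the FLAG list over the empty vector IP, which shares no library with this comparison, 48.8% of canonical peaks were in the CDS against 47.0% by length, 47.5% in the 3′ UTR against 47.9%, and 3.62% in the 5′ UTR against 5.06%. In the V5 list over input, which shares the V5 IP libraries, the CDS held 52.3% against 48.9%, the 3′ UTR 38.3% against 46.0%, and the 5′ UTR 9.32% against 5.09%. These differences between lists were not tested.

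**Figure D3:**
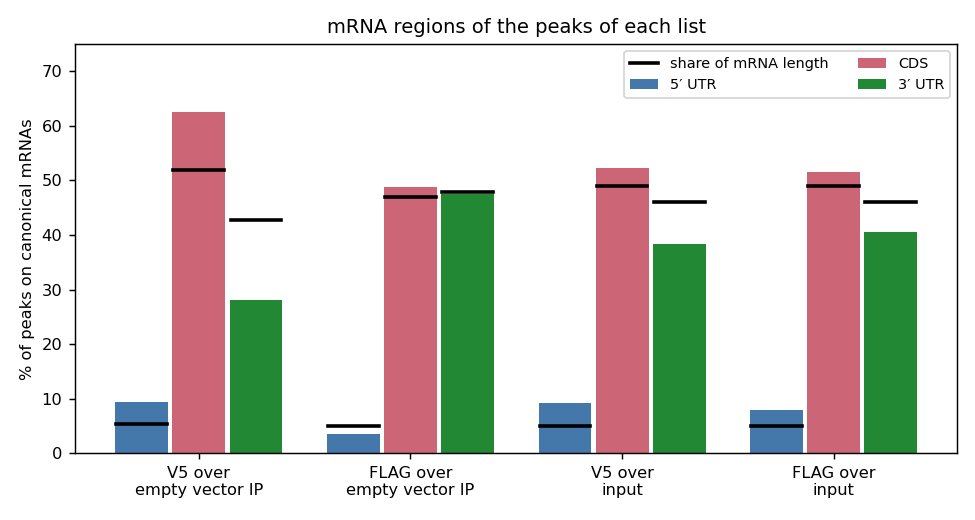
Share of peaks on canonical mRNAs in each region (bars, percent, y axis) for each of the 4 lists, with the share that the region takes of the length of the same mRNAs (black lines). For V5 over the empty vector IP the CDS bar (62.6%) stands above its line (51.9%) and the 3′ UTR bar (28.0%) below its line (42.8%), while in FLAG over the empty vector IP both lie near their lines.

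Within regions, peaks were densest in the first part of the CDS and sparse at the end of the 3′ UTR. When the CDS was cut into 10 equal parts, the first held 315 peak midpoints (17.1% of 1838), the other parts before the last held 8.54% to 10.2%, and the last held 128 (6.96%). In the 3′ UTR the first part held 116 of 827 midpoints (14.0%) and the last only 26 (3.14%). In the 5′ UTR the first part, next to the cap, held 12 of 271 (4.43%), the fourth held the most at 44 (16.2%), and the last, next to the start codon, held 28 (10.3%). The midpoint of a peak on an mRNA cannot lie at the very end of that mRNA. Peaks in the 5′ UTR were long (median 86 nt) for the length of the 5′ UTRs (median 129 nt). The shares of the 5′ UTR parts therefore depend on peak length and do not show where binding was densest. The first base of the start codon lay in 196 peaks (6.66% of 2942), with COX18, a mitochondrial assembly factor, highest at 5.22. The last base before the stop codon lay in 71 peaks (2.41%), with POLG highest at 5.65. The stop codon itself was counted with the 3′ UTR. COX18 was chosen after its values were seen. A midpoint lay within 100 nt of the start codon in 463 of 2936 peaks (15.8%, 14.5 to 17.1), and within 100 nt of the stop codon in 189 (6.44%, 5.61 to 7.38). Of the CDS peaks, 660 (35.8%) reached the edge of an exon, and their median enrichment of 3.63 was near the 3.61 of the other CDS peaks. The share of mRNA length that lies near start codons, stop codons or exon edges was not computed. These counts therefore do not show whether peaks were more or less common there than length alone would give.

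**Figure D4:**
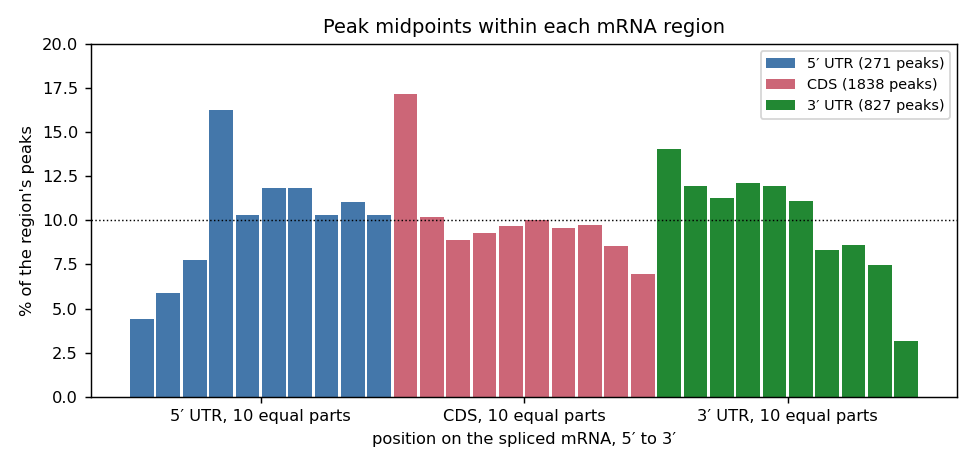
Share of the peak midpoints of each mRNA region (y axis, percent) in 10 equal parts of that region, 5′ to 3′ (x axis). The dotted line marks an even spread of 10%, which midpoints of whole peaks are not free to follow close to the ends of an mRNA. The first part of the CDS holds 17.1% of its midpoints and the last part of the 3′ UTR 3.14%.

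The peaks were rich in G and C compared with the whole of the same region of the same mRNAs. In the CDS the GC content was 61.1% in peaks against 54.8% over the region, and it was higher in the peaks of 666 of 845 genes. In 3′ UTRs it was 57.7% against 47.0%, higher in 450 of 485 genes, and in 5′ UTRs 72.2% against 69.2%, higher in 132 of 215 genes. Among 4-base words in the CDS, CGCG (2.59 times as frequent in peaks as outside) and GCGC (2.16 times) had the highest ratios and UUAA (0.22) the lowest. In 3′ UTRs, GCCG was 2.33 times as frequent in peaks and AAAA 0.15 times.

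The dinucleotide GU, part of the loop motif in the guide RNA scaffold, made up 5.92% of CDS dinucleotides in peaks and 4.55% outside (ratio 1.30). In the CDS, CG and GC had larger ratios, 1.57 and 1.32, and AA a smaller one, 0.55. The ratio of GU was 1.21 in 3′ UTRs, where CG stood at 1.70, and 1.19 in 5′ UTRs, where CG stood at 1.23. A GU was present in 2665 peaks (88.7%), but that share followed the length of the peak: 45.5% of peaks under 25 nt and 100% of those of 100 nt or more held it.

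The gene lists used below were defined by function, and each count is read against the 6.73% of all protein-coding genes. The figure also shows the share among members with a peak in any list, beside the 37.2% of all such genes. The text gives that second share for some lists only. Abundant mRNAs are more easily detected, and abundance was not divided out. In these lists a gene can be counted in more than 1 list, as SESN2 is.

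**Figure D5:**
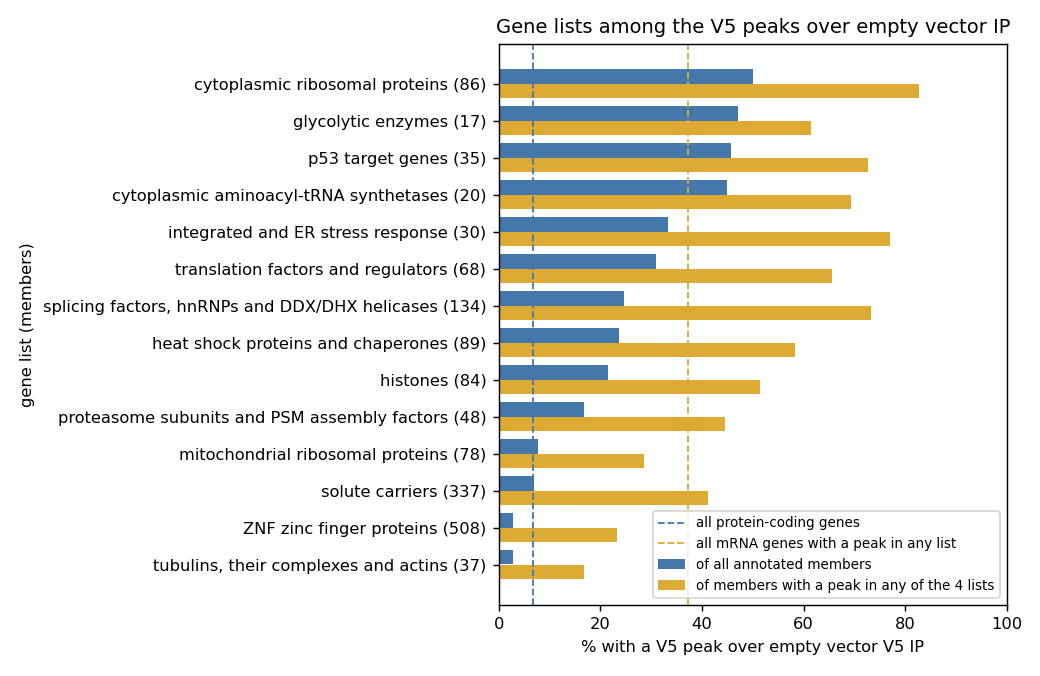
Share of the genes of each list with a peak in the list (x axis, percent), of all annotated members (blue) and of those with a peak in any of the 4 lists (yellow), with the same shares over all genes as dashed lines; members are in parentheses. Cytoplasmic ribosomal proteins stand at 50.0% of members and zinc finger (ZNF) proteins at 2.76%, on either side of the 6.73% line.

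Genes of the translation machinery were well represented in this list. Fewer had a peak in the FLAG list over the empty vector IP, which held 974 mRNA genes. There the counts were 16 for cytoplasmic ribosomal proteins, 9 for translation factors and 3 for cytoplasmic aminoacyl-tRNA synthetases, a difference that was not tested. Of 86 cytoplasmic ribosomal protein genes, 43 (50.0%, 39.7 to 60.3) had a peak, and of the 52 with a peak in any list this was 82.7%. They carried 244 peaks, of which 212 (86.9%) lay in the CDS, and their median highest enrichment of 3.78 was close to the 3.72 of all 1304 mRNA genes. RPS12, a protein of the small subunit, reached 5.46, and 5 of its 8 peaks stood at the p-value ceiling. Of 68 genes of translation factors and their regulators, 21 (30.9%) had a peak, led by EEF1G and EEF2, with EIF4H, a cofactor of the helicase that opens 5′ UTRs, at 4.43 in its 3′ UTR and EEF1A2, a tissue-restricted form of elongation factor 1, at 4.41. Of 20 cytoplasmic aminoacyl-tRNA synthetase genes, 9 (45.0%) had a peak, led by MARS1, SARS1 (seryl, 4.99), TARS1 (threonyl, 3.86) and EPRS1 (glutamyl-prolyl, 3.59), and 29 of their 32 peaks lay in the CDS.

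Target genes of p53, the transcription factor that the SV40 large T antigen binds, were among the higher lists by both count and height. Of 35 such genes, 16 (45.7%, 30.5 to 61.8) had a peak, and their median highest enrichment was 4.51, against 3.72 over all mRNA genes. Beside CDIP1 and SESN2, CCNG1 (cyclin G1) reached 5.25 and PMAIP1, which encodes the proapoptotic protein NOXA, 5.10 with all 3 of its peaks in the 5′ UTR. CDKN1A, the cell cycle inhibitor p21, held 7 peaks, of which 3 lay in the CDS, 3 in the 3′ UTR and 1 in the 5′ UTR, up to 4.90. AEN, an apoptosis-related nuclease, held 14 peaks up to 4.83, 8 of them in the 3′ UTR. Over input, the highest V5 peaks of CDKN1A and AEN stood at 5.52 and 5.21. The p53 list was chosen with these data known, and its height relative to other genes was not tested.

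Of 30 genes of the integrated and endoplasmic reticulum stress responses, 10 (33.3%) had a peak with a median highest enrichment of 4.19, led by ATF3, TRIB3, SESN2 and DDIT4, an inhibitor of mTORC1 signalling, at 4.62. ATF4, the central factor of the integrated response, had 1 peak at 3.41. Of 89 heat shock and chaperone genes, 21 (23.6%) had a peak. DNAJB1, a cochaperone induced by heat, was highest at 4.85, followed by DNAJC5 at 4.64, the stress-induced HSPA6 at 4.38 and the mitochondrial chaperonin HSPD1 at 4.08.

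Of 134 genes of splicing factors, hnRNPs and RNA helicases of the DDX and DHX families, 33 (24.6%) had a peak. Of the 33, 13 were DDX or DHX helicases, of which several act outside splicing, and 16 of the 59 peaks of the list lay in the 5′ UTR. Both peaks of SNRPD1, a core protein of spliceosomal particles, and both of HNRNPAB lay in the 5′ UTR, with highest values of 4.83 and 4.60. SF3A1 and SF3B3, both of the U2 particle, reached 4.70 and 4.43. Of 17 glycolytic enzyme genes, 8 (47.1%) had a peak, at modest height: HK2 (hexokinase 2) reached 4.37, PFKL (phosphofructokinase) 4.08, LDHA (lactate dehydrogenase) 3.59 and GPI (glucose-6-phosphate isomerase) 3.55. GAPDH, the glycolytic enzyme often used as a loading reference, had 0 peaks.

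Of 48 genes with a PSM symbol, which encode proteasome subunits, regulators and assembly factors, 8 (16.7%) had a peak, with 14 of 16 peaks in the CDS, led by the subunits PSMB5 at 5.02 and PSMB4 at 4.75. The list counts PSMG3, an assembly chaperone, at 3.45. Solute carrier genes, at 23 of 337 (6.82%), lay at the background share. SLC66A2 led them with a single 3′ UTR peak at 5.15, SLC38A1, a glutamine transporter, held 3 peaks in its 3′ UTR up to 5.14, and SLC25A11 and SLC25A25, carriers of the mitochondrial inner membrane, both reached 5.02. Mitochondrial ribosomal proteins, at 6 of 78 (7.69%), also lay near the background, with MRPL12 at 5.32. Zinc finger (ZNF) genes lay below it, at 14 of 508 (2.76%), although ZNF672 reached 6.10, ZNF496 4.90 and ZNF445 4.25. Among members with a peak in any list, the share was 41.1% for solute carriers, 28.6% for mitochondrial ribosomal proteins and 23.3% for ZNF genes, beside 37.2% of all such genes. Of 37 genes of tubulins, tubulin complex proteins and actins only ACTG1 (cytoplasmic gamma actin) had a peak, at 3.02, and ACTB (beta actin) had 0.

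Of the 39 peaks outside mRNA, transfer RNA held the most, 16 peaks in 6 genes, with log2 enrichments of 3.03 to 3.39, low in the list, but 11 of them stood at the p-value ceiling. In 4 of the 6 genes the peaks covered the downstream part of the tRNA gene, through its 3′ end and 3 or 4 nt beyond. In the sequences of the genes (RefSeq genes on hg38, on the strand of the peak), the capitals mark the bases covered by peaks.
TRR-TCT1-1, chr1:93847573-93847657, plus strand: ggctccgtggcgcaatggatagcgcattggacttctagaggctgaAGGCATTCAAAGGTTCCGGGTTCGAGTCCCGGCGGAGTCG
TRU-TCA1-1, chr19:45478601-45478687, minus strand: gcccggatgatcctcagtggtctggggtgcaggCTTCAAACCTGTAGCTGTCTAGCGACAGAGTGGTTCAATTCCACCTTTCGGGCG
TRR-ACG2-1, chr3:45688999-45689071, minus strand: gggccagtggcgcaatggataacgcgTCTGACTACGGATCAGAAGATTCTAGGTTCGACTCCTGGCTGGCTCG
TRR-TCT4-1, chr1:159141611-159141684, minus strand: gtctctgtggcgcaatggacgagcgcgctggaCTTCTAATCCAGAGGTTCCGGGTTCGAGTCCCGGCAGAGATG
TRR-TCG1-1, chr15:89335073-89335145, plus strand: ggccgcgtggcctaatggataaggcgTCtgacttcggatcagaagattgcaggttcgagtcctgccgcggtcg
TRK-CTT1-2, chr15:78860562-78860634, plus strand: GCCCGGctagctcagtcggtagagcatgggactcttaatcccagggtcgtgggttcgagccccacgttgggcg

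Of these 6 genes, 4 (TRR) encode arginine tRNAs, 1 (TRU) the selenocysteine tRNA, which reads a stop codon as selenocysteine, and 1 (TRK) a lysine tRNA. TRR-TCT1-1 reached 3.39, TRU-TCA1-1 3.35 and TRR-ACG2-1 3.34, and each held peaks at the p-value ceiling. TRR-TCG1-1, at 3.22, was covered over only 2 nt, and TRK-CTT1-2, at 3.06, over the first 6 nt of the gene. The GTTC of the B box, an internal promoter element that tRNA genes share, was found in all 6 on the strand of the peak.

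Over input, V5 peaks in the same tRNA genes stood far higher: 7.27 in TRR-TCT1-1, 8.56 in TRU-TCA1-1, 7.97 in TRR-TCG1-1, and 5.48 to 5.55 in the other 3. Both comparisons use the same V5 IP libraries with different controls. Each value is the highest among the peaks that a list holds in the gene, so the 2 values of a gene need not come from the same stretch. The FLAG list over the empty vector IP held no peak in any tRNA gene. In the FLAG list over input all 6 genes had a peak, from 5.69 in TRR-ACG2-1 to 9.52 in TRU-TCA1-1.

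The vault RNA gene VTRNA1-2 held 2 peaks, at 3.41 and 3.45, both at the p-value ceiling. Long noncoding RNAs held 12 peaks in 5 genes, of which LINC02693 was highest at 4.24, and EPB41L4A-AS1 (3.29), SNHG7 (3.23), SNHG29 (3.22) and SNHG16 (3.15) followed. SNHG genes host small nucleolar RNAs in their introns. Pseudogenes held 8 peaks in 4 genes, RPL14P1 (4.63), ENSG00000283041 (4.44), RPL8P3 (4.43) and RPS2P5 (3.27), and at least 3 of them are by name copies of ribosomal protein genes, so their reads may derive from the parents. The remaining peak, at 3.27, lay in the unnamed gene ENSG00000278948.

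The 37 peaks at the p-value ceiling belonged to few genes. Beside the tRNA and vault RNA peaks, they lay among others in RPL8 (8 peaks, log2 4.76 to 6.13), H2AC11 (7), RPS12 (5), EEF2 (1) and H1-4 (1). So the 24 ceiling peaks in mRNA stood at 4.03 or more, and the 13 in noncoding RNA at 3.45 or less.

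FLAG-dSpCas9, expressed and immunoprecipitated separately with its own empty vector control, gave a list that shares no library with this one. Of the 3005 peaks, 921 (30.6%, 29.0 to 32.3) overlapped, on the same strand and by at least 1 nt, a FLAG peak over the empty vector IP, and 990 of 1964 FLAG peaks (50.4%) overlapped one of these. The share rose with enrichment, from 14.5% of peaks between 3 and 3.5, through 30.7% between 3.5 and 4 and 49.6% between 4 and 5, to 82.9% of the 129 above. It also differed between regions: 49.1% of the 3′ UTR peaks overlapped a FLAG peak, but 24.1% of the CDS peaks and 19.3% of the 5′ UTR peaks. At gene level, 561 mRNA genes had a peak in both lists, 43.0% of the 1304 here and 57.6% of 974, and their highest values correlated across genes with a Pearson coefficient of 0.42 and a Spearman coefficient of 0.35. Genes are not independent replicates, and no test was made.

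Where a peak overlapped a FLAG peak, its V5 enrichment was above the highest overlapping FLAG value in 608 of 921 cases, with a median difference of 0.26 (V5 minus FLAG, log2). Among the genes chosen for a high V5 value, the highest FLAG value was above the V5 value for CDIP1, ATF3 (7.26 in FLAG), H2AC11 (7.93) and POLG (6.48). It was far below for MACROH2A2 (3.76 in FLAG) and SRM (3.45), a direction that the choice of genes favours.

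The list over input shares its IP libraries with this one, so the pair of lists differs by the control. Of the 3005 peaks, 2301 (76.6%) overlapped a V5 peak over input, and the share rose from 64.7% at log2 3 to 3.5 to 100% above 5. The 704 that did not were lower (median 3.38) and lay in the CDS more often, at 79.5% against 55.7% of those that did. Among the 2301, the value here was above the highest overlapping value over input in 964, and the medians were 3.71 here and 3.89 over input. In 93 mRNA genes no peak over either input was found, and their median highest enrichment was 3.38. SLTM (4.51, 1 peak), DMKN (4.23, 3 peaks), NME2, a nucleoside diphosphate kinase (4.22, 3 peaks) and FASN, fatty acid synthase (4.18, 6 peaks, all in the CDS) were among the highest, and were chosen after their values were seen. In all, 539 peaks (17.9%) overlapped no peak of another list and 861 (28.7%) overlapped peaks of all 3.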

How the data were processed

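The authors aligned reads to hg38, found peaks with their eCLIP pipeline and merged the replicates (Irreproducible Discovery Rate). For each peak the deposited lists give the log2 enrichment and the −log10 p that the authors computed. The submitters' processing notes name UMI-tools 1.0.0, cutadapt 1.14, STAR 2.4.0i and SAMtools 1.6. How library sizes were scaled before the ratio is not given in the sources used here.

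Peaks that overlapped any of 465 RefSeq tRNA genes, with 5 nt on either side, were assigned to them first, whatever the strand. The other peaks were assigned by strand to GENCODE version 44 canonical transcripts, by the longest overlap. Peaks on no canonical transcript went to other transcripts, noncoding genes or introns, in that order. Positions are 1-based. The assignment was tested on simulated data, where 600 of 600 planted intervals were found. Each lay inside a single region of a single canonical mRNA. Peaks across region borders, on overlapping genes or in noncoding RNA were therefore not covered by that test. Overlaps were checked with bedtools 2.31.1. The software was scipy 1.17.1, pandas 2.3.3 and numpy 2.4.6 in Python 3.11.15. No statistical test was made.

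The members, gene lists and named genes were chosen with earlier results of these data known. Named were the 20 genes with the highest peak, 10 with the most intervals, 5 per region and noncoding class, 4 per list, and CDIP1, ATF3, CDKN1A, AEN, TRIM28, ACTB and GAPDH. Sequences on chromosome 8 and of some short peaks with higher values were not shown. Of the genes so selected, 1 is not reported. The alternatives tried were stricter thresholds, merged peaks, midpoints, nucleotides and equal weight per gene.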

Additional observations from a re-analysis of the deposited data

How the results depend on the processing

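No paired analysis was possible because the list holds 1 value per peak for both replicates, and for the same reason neither replicate could be left out. With a log2 of at least 4, 841 peaks in 436 genes remained of 3005 in 1321 (tRNA and other noncoding genes included), and 54.7% of peaks overlapped a FLAG peak over the empty vector IP. With a −log10 p of at least 10, 889 peaks in 327 genes remained, 24.4% of them in the 3′ UTR and 10.5% in the 5′ UTR, and 42.4% overlapped. Genes with at least 2 peaks numbered 593. Counted by nucleotides, the CDS, 3′ UTR and 5′ UTR shares were 54.8%, 32.4% and 10.7%, and with equal weight per gene 56.7%, 30.03% and 11.1%. The FLAG overlap was 28.6% for merged peaks and 27.2% where 50% of the peak had to be covered. With either threshold, by nucleotides and with equal weight per gene, the CDS share stayed the largest and the 5′ UTR share the smallest of the 3. The fixed thresholds and unknown depth mean that a gene without a peak was not shown to be unbound.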
